A study of Homo sapiens with 16 samples.

Results

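Aminoacyl-tRNA synthetases are the enzymes that join each amino acid to its transfer RNA, and 38 genes of this family were followed here in human lung cancer cells depleted of YEATS2. The members were chosen by gene symbol, as every row of the deposited RNA-seq table that carried 1 of 38 fixed names, and all 38 were found among the 12676 genes of the table. They comprised 20 synthetases of the cytosol, 16 mitochondrial synthetases whose symbols end in 2, and the scaffold proteins AIMP1 and AIMP2. AIMP2 also ends in 2 but is a cytosolic protein, and it was not counted as mitochondrial. The symbols are the older ones used in the table, and current annotation writes most of the cytosolic names with a 1 at the end (AARS1, KARS1).

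The cells were H1299, an established line of human non-small cell lung cancer, and YEATS2 is a subunit of the ATAC histone acetyltransferase complex. Control cells (shNT) had received a lentiviral non-targeting hairpin, and knockdown cells (shYEATS2) a hairpin against YEATS2, 2 libraries each. Both groups were infected with 8 µg/ml polybrene and then selected in 2 µg/ml puromycin, so that drug selection was common to both. The labels give 4 to 7 days of selection, and the study's methods give a shorter time. The study describes these libraries as made with 1 of its YEATS2 hairpins, and RNA-seq with another hairpin was not analysed here. In these libraries an effect of YEATS2 loss cannot be told apart from another effect of that hairpin.

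The libraries held 34718921 to 39417787 reads in genes. YEATS2 itself had scaled counts of 4482 and 4104 in shNT and of 665 and 673 in shYEATS2 cells, a log2 fold change of -2.68 ± 0.10 (SE). Scaled counts are reads adjusted to the mean library size after normalization, and every fold change below is shYEATS2 over shNT from 1 fit to all genes of the table. Among marker genes, KRT8, KRT18 and VIM were abundant in all 4 libraries, whereas EPCAM and NKX2-1 were not listed. These are bulk libraries, in which fewer cells of a kind and less RNA per cell cannot be told apart.

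Each synthetase recognizes 1 amino acid and its transfer RNAs, with EPRS, which carries glutamate and proline activities in 1 chain, as the exception. Cytosolic enzymes charge the transfer RNAs of cytoplasmic ribosomes, while a separate nuclear-encoded set charges those of the mitochondrion. GARS and KARS serve both compartments from a common gene. When amino acids are scarce or the endoplasmic reticulum is stressed, the transcription factor ATF4 raises many cytosolic synthetase genes through a composite DNA element, the amino acid response element. From that background knowledge the cytosolic set was divided into 12 amino acid response synthetases (AARS, CARS, EPRS, GARS, IARS, LARS, MARS, NARS, SARS, TARS, WARS and YARS) and 8 other cytosolic synthetases (DARS, FARSA, FARSB, HARS, KARS, QARS, RARS and VARS). The lists were drawn up with earlier results of these data known. Differences between them below are therefore descriptions and not tests.

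The promoter windows of the members, from 250 bases before to 50 bases after the annotated start in RefSeq (GRCh38.p14), were searched for that element. The division of the cytosolic set rests on known induction through ATF4 and not on this search. The motif was TGATGNAA, read on both strands. Windows were found for 32 of the 38 members. DARS, LARS, VARS, YARS, AARS2 and VARS2 were not matched. The motif stood in 272 of 14311 windows of all matched genes of the table (1.9%), and in 8 of the 44 windows of the members (18.2%). By list, it lay in the windows of 7 of 10 matched amino acid response synthetases, in 0 of 6 matched other cytosolic synthetases and in 1 of 14 matched mitochondrial synthetases, YARS2. The 30 bases around each match are given below on the gene's own strand, with the motif or its reverse complement in capitals.
AARS (chr16:70289675-70289704, minus strand): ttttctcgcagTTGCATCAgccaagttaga
CARS (chr11:3057407-3057436, minus strand): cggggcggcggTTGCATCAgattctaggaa
GARS (chr7:30594834-30594863, plus strand): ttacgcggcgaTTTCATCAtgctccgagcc
IARS (chr9:92293692-92293721, minus strand): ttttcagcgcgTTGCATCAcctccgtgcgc
MARS (chr12:57488053-57488082, plus strand): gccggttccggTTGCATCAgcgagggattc
NARS (chr18:57621804-57621833, minus strand): tctacgctctcTGATGCAAcgccggaatcg
TARS (chr5:33440956-33440985, plus strand): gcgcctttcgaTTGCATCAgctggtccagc
YARS2 (chr12:32756076-32756105, minus strand): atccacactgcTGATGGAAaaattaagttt
In 6 of the 7 cytosolic genes the fixed and variable bases together read TTGCATCA or its reverse complement TGATGCAA, and GARS had TTTCATCA. The match began 2 bases before the start site in CARS, 4 in MARS, 13 in IARS and 33 in GARS, 3 bases after it in TARS and 15 after it in NARS, while in AARS and YARS2 it was 187 and 197 bases upstream. SARS and WARS, the members with the largest increases, had no match in their windows. Other promoter motifs were searched in the same way. The ETS core CCGGAAG was in 17.5% of all windows, 53.3% of those of the amino acid response synthetases, 50% of those of the other cytosolic synthetases and 44.4% of the mitochondrial ones. The E-box CACGTG was in 9.56% of all windows and 13.6% of the members', and the core GCGCATG of the NRF1 site in 6.92% and 4.55%. A match is only a match of letters, and no factor was measured at these sites.

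Of the 38 members, 6 were lower and 2 were higher in shYEATS2 cells at a false discovery rate (FDR) under 0.01 by the quasi-likelihood test of edgeR, adjusted over all genes by the Benjamini-Hochberg method. Over the whole table, 12.5% of genes were called lower and 12.9% higher by the same rule, so the number of called members was close to the background for lower calls and below it for higher calls. The lower genes were DARS, FARSB, KARS, NARS2, RARS2 and YARS2, and the higher genes were WARS and SARS. Both shYEATS2 libraries lay below both shNT libraries for 21 members and above both for 9, against 39.8% and 39.7% of all genes, and 8 members overlapped. The median log2 fold change of the 38 members was -0.18, beside a median of -0.0018 over all genes.

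**Figure D1:**
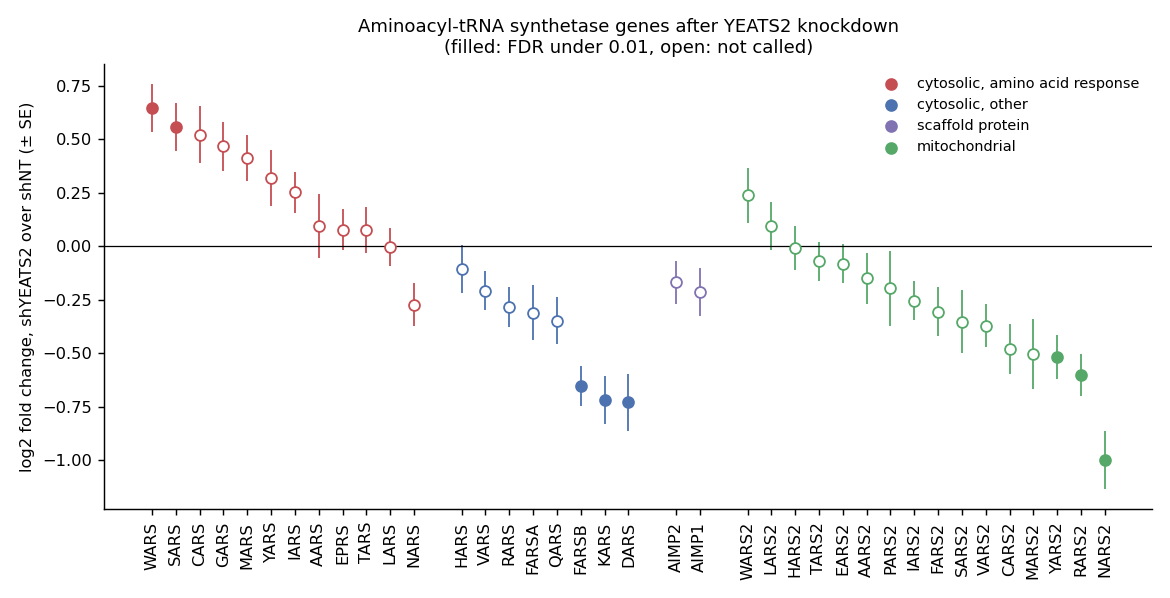
Log2 fold change (vertical axis, shYEATS2 over shNT, bars ± SE, 2 libraries per group) of the 38 members, arranged by role and sorted within each role. Filled points passed FDR under 0.01. WARS and SARS stand at 0.65 and 0.56 on the left, NARS2 at -1.0 on the right, and the 8 other cytosolic synthetases are all below 0.

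WARS, the tryptophanyl-tRNA synthetase, showed the largest increase of the family. Its scaled counts were 9369 and 8403 in shNT and 12974 and 14843 in shYEATS2 cells, a log2 fold change of 0.65 ± 0.11 (SE, FDR = 0.00474). Every shYEATS2 library was above every shNT library, and unlike most of its list WARS was lower in the second shNT library than in the first. The gene lies at chr14:100800127-100843142 on the minus strand (hg19, as are all gene positions below). WARS is also an interferon-induced gene. Of 12 interferon response genes looked up, 8 were in the table and 4 were not. Of the 8, 4 rose (STAT2, IRF1, IFIT2 and IFIT3), with a median log2 fold change of 0.96 over the 8. By the same rule 12.9% of all genes rose. The table holds only genes with at least 101 reads in some library. Interferon genes low in shNT cells could therefore enter it through the shYEATS2 libraries. IFIT2 moved from 76.4 and 113 scaled counts in shNT to 412 and 1164 in shYEATS2 cells. Whether the interferon genes and WARS moved for a common reason was not tested.

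SARS, the seryl-tRNA synthetase (chr1:109756540-109780804, plus strand), was the other member that rose. Its scaled counts were 6405 and 7278 in shNT and 9418 and 10700 in shYEATS2 cells, without overlap (log2 fold change 0.56 ± 0.11, FDR = 0.0082). Both calls held without the first shYEATS2 library and were lost without any of the other libraries. Without the first shNT library the FDR was 0.013 for WARS and 0.0654 for SARS, without the second shNT library it was 0.031 and 0.0175, and without the second shYEATS2 library it was 0.0104 and 0.0215.

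CARS, GARS and MARS, which charge cysteine, glycine and methionine, moved upward by similar amounts but missed the threshold. CARS had scaled counts of 2615 and 3273 in shNT and 3984 and 4460 in shYEATS2 cells (log2 fold change 0.52 ± 0.13, FDR = 0.0181). GARS had 15160 and 17897 against 21849 and 23861 (0.47 ± 0.12, FDR = 0.0161). For both genes the groups did not overlap, and the first shNT library was the lowest. MARS had 14159 and 16269 against 19672 and 20811 (0.41 ± 0.11, FDR = 0.0188). These were the further members called higher when edgeR's exact test or DESeq2 replaced the quasi-likelihood test. MARS shares 60 bases of its exons (2.15%) with DDIT3 on the opposite strand, and DDIT3 was itself higher. The library kit does not mark strand, so reads of that short stretch cannot be told apart.

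The other amino acid response synthetases did not pass the test. YARS (tyrosine) had 10794 and 13476 scaled counts in shNT and 14346 and 15893 in shYEATS2 cells (log2 fold change 0.32, FDR = 0.083), and IARS (isoleucine) had 20140 and 21498 against 23936 and 25655 (0.25, FDR = 0.0668). AARS, EPRS, TARS and LARS, for alanine, glutamate with proline, threonine and leucine, had log2 fold changes of 0.09, 0.08, 0.07 and -0.0041. NARS, the asparaginyl enzyme, had the lowest value of this list, with 11168 and 12504 against 9933 and 9651 (-0.27, FDR = 0.0584). Its window held the motif. In the 12 genes together, 2 rose and 0 fell. The median log2 fold change was 0.28, 10 were above 0, and the libraries stood apart upward in 8 and downward in 1. For comparison, 12.9% of all genes were called higher, and the libraries stood apart upward in 39.7%. The first shNT library was the lowest of the 4 in 10 of these 12 genes and was below the second shNT library in 11. Without that library the median of the list was 0.18.

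Of the 8 other cytosolic synthetases, 3 fell and 0 rose, the median log2 fold change was -0.33, all 8 values were below 0, and in 7 the libraries did not overlap. Across all genes, 12.5% were called lower, and 39.8% had both shYEATS2 libraries below both shNT libraries. DARS, the aspartyl-tRNA synthetase (chr2:136663451-136743670, minus strand), had scaled counts of 8794 and 8503 in shNT and 5872 and 4566 in shYEATS2 cells (log2 fold change -0.73 ± 0.13, FDR = 0.0057). KARS, the lysyl-tRNA synthetase (chr16:75661372-75682541, minus strand), had 20403 and 19492 against 13134 and 11093 (-0.72 ± 0.11, FDR = 0.00349). In both genes the control libraries were closer to each other than to either knockdown library, and the second shYEATS2 library was the lower of its pair. Per transcript length, KARS was the most abundant of the synthetases in control cells. FARSB, the beta subunit of the phenylalanyl enzyme (chr2:223431618-223520811, minus strand), had 4561 and 4707 against 3043 and 2841 (-0.66 ± 0.09, FDR = 0.00262).

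FARSA, which encodes the alpha subunit of that enzyme, had 7287 and 6231 scaled counts in shNT and 5940 and 4953 in shYEATS2 cells (log2 fold change -0.31 ± 0.13, FDR = 0.0838). It thus lay below 0 like FARSB but did not pass the test, and whether the subunits differed was not tested. QARS (glutamine), RARS (arginine) and VARS (valine) had log2 fold changes of -0.35, -0.28 and -0.21 with FDR values of 0.0375, 0.0444 and 0.0951. HARS (histidine) at -0.11 was the gene of this list whose libraries overlapped.

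The lists within the cytosolic set were also summed in each library. The summed scaled counts of the 12 amino acid response synthetases were 136291 and 153680 in shNT and 167222 and 178490 in shYEATS2 cells. Those of the 8 others were 76078 and 74046 in shNT and 58028 and 52838 in shYEATS2 cells. The ratio of the sums was 1.79 and 2.08 in control and 2.88 and 3.38 in knockdown libraries, so both knockdown libraries lay above both controls. The cytosolic set as a whole showed little of this, since its 20 genes had a median log2 fold change of 0.04 with 10 values on each side of 0, 3 genes that fell and 2 that rose.

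**Figure D2:**
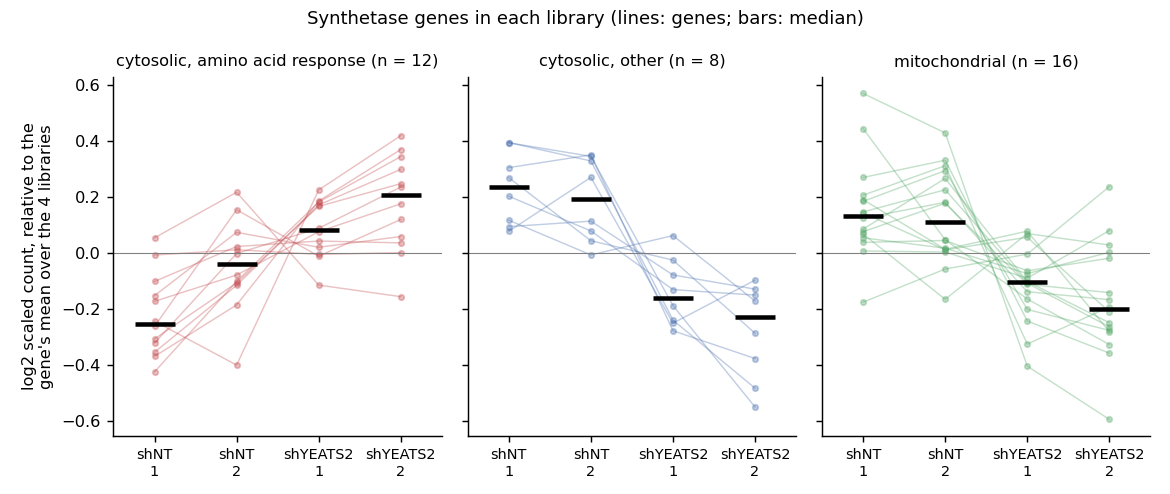
Log2 scaled count of each synthetase relative to its own mean over the 4 libraries (vertical axis), with 1 line per gene and a bar at the list median, in the 2 shNT and 2 shYEATS2 libraries (horizontal axis). The medians of the 12 amino acid response synthetases run from -0.25 and -0.04 in shNT to 0.08 and 0.21 in shYEATS2, those of the 8 other cytosolic synthetases from 0.24 and 0.19 to -0.16 and -0.23, and those of the 16 mitochondrial synthetases from 0.13 and 0.11 to -0.11 and -0.20.

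Several cytosolic synthetases are held in the multisynthetase complex, which binds DARS, EPRS, IARS, KARS, LARS, MARS, QARS and RARS around AIMP1, AIMP2 and a further scaffold protein, EEF1E1 (AIMP3). Of the 10 members in this complex, DARS and KARS fell and none rose at this threshold, and the median log2 fold change was -0.19. The members of the complex therefore ranged from -0.73 for DARS to 0.41 for MARS. AIMP1 had scaled counts of 3069 and 2803 in shNT and 2708 and 2355 in shYEATS2 cells (log2 fold change -0.21, FDR = 0.15), and AIMP2 had 1928 and 1792 against 1724 and 1584 (-0.17, FDR = 0.196). Neither passed the test. AIMP2 shares 532 exon bases, 44.4% of its canonical transcript, with EIF2AK1 on the opposite strand, and its count cannot be separated from that gene's. EEF1E1, which was not among the 38, fell from 1509 and 1354 to 985 and 803 (-0.68, FDR = 0.00717). By structural class, 2 of 18 class I synthetases fell and 1 rose, and 4 of 17 class II synthetases fell and 1 rose, with medians of -0.15 and -0.20. These counts stand beside 12.5% of all genes called lower and 12.9% called higher.

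Of the 16 mitochondrial synthetases, 3 fell and 0 rose. The median log2 fold change was -0.28, 14 of the values were below 0, and the libraries stood apart downward in 11 and upward in 1. Among all genes, 12.5% were called lower, and the libraries stood apart downward in 39.8%. NARS2, the mitochondrial asparaginyl-tRNA synthetase (chr11:78146666-78286239, minus strand), showed the largest change among the 38 members. Its scaled counts were 663 and 601 in shNT and 337 and 295 in shYEATS2 cells, a log2 fold change of -1.0 ± 0.14 (FDR = 0.0023). It was also the member that stayed below the FDR threshold under each left-out library.

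RARS2, the arginyl enzyme (chr6:88223177-88299746, minus strand), had 3463 and 3614 scaled counts in shNT and 2425 and 2240 in shYEATS2 cells (log2 fold change -0.60 ± 0.10, FDR = 0.00388). YARS2, the tyrosyl enzyme (chr12:32880424-32908831, minus strand), had 1957 and 2106 against 1353 and 1484 (-0.52 ± 0.10, FDR = 0.00713). The groups did not overlap in either gene. YARS2 lost its call when libraries were scaled by their totals alone (log2 fold change -0.40, FDR = 0.018).

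The mitochondrial enzymes next in size were close to the threshold. CARS2 (cysteine) had 703 and 758 scaled counts in shNT and 537 and 510 in shYEATS2 cells (log2 fold change -0.48, FDR = 0.0151). MARS2 (methionine) had 796 and 604 against 522 and 466 (-0.50, FDR = 0.0391), and VARS2 (valine) had 2550 and 2695 against 2137 and 1918 (-0.37, FDR = 0.0225). The groups did not overlap in these genes, but the shNT libraries of MARS2 were far apart. SARS2, FARS2, IARS2, PARS2, AARS2, EARS2, TARS2 and HARS2 had log2 fold changes between -0.35 and -0.0075. LARS2 (leucine) and WARS2 (tryptophan) were the members of this list above 0, at 0.09 and 0.24. PARS2 and SARS2 had the fewest reads in shNT cells, and the standard errors of their log2 fold changes were 0.17 and 0.15 against a median of 0.12 over all genes.

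Mitochondrial glutaminyl-tRNA is not made by a synthetase of its own but from glutamyl-tRNA by the GatCAB amidotransferase. Its subunits QRSL1 (GatA) and PET112 (GatB) fell, both with a log2 fold change of -0.53 (FDR = 0.00521 and 0.00969). GATC at 0.18, and MTFMT at 0.01, which formylates the initiator methionyl-tRNA, were not called.

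For 13 amino acids the members held a cytosolic gene and a mitochondrial gene with the same symbol plus a final 2, and these were paired. Phenylalanine, glutamate and proline also have both kinds of gene among the members, but their symbols do not pair in this way. FARSA and FARSB had log2 fold changes of -0.31 and -0.66 beside -0.31 for FARS2. EPRS had 0.08 beside -0.08 for EARS2 and -0.20 for PARS2. The cytosolic gene had the higher log2 fold change in 11 of the 13 pairs and the lower in 2, HARS with HARS2 and LARS with LARS2, where the values differed by 0.10. The median difference, cytosolic minus mitochondrial, was 0.41. CARS and CARS2 differed most, by 1.00, and the ratio of their scaled counts was 3.72 and 4.32 in shNT and 7.41 and 8.74 in shYEATS2 cells. For MARS and MARS2 that ratio was 17.8 and 26.9 against 37.7 and 44.7, and for YARS and YARS2 5.51 and 6.40 against 10.6 and 10.7. In these pairs the cytosolic gene gained on its mitochondrial counterpart in both knockdown libraries. SARS with SARS2 (19.0 and 19.1 against 31.8 and 40.1) and NARS with NARS2 (16.9 and 20.8 against 29.5 and 32.7) moved alike, although NARS itself lay below 0. By sums, the cytosolic set was 7.57 and 8.00 times the mitochondrial one in shNT and 9.47 and 9.95 times in shYEATS2 cells. These differences between paired genes were not tested, since pairs are not replicates and each group held 2 libraries.

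**Figure D3:**
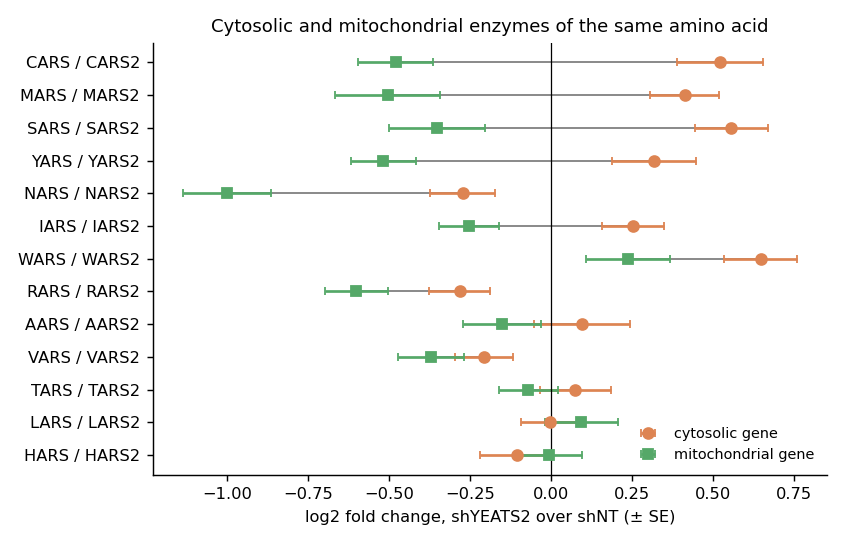
Log2 fold change (horizontal axis, shYEATS2 over shNT, bars ± SE) of the cytosolic gene (circles) and the mitochondrial gene (squares) in the 13 pairs matched by symbol, sorted by the difference. The circle lies to the right of the square in 11 of 13 pairs, and the gap is widest for CARS and CARS2, at 1.00.

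Several members share a bidirectional promoter region with another gene, which was looked up by position and not by value. HARS and HARS2 start 85 bases apart on opposite strands, and neither passed the test (log2 fold changes -0.11 and -0.0075). KARS starts 108 bases from TERF2IP, a telomere protein gene that rose while KARS fell (0.57, FDR = 0.00678). YARS starts 295 bases from S100PBP, which fell (-1.05, FDR = 0.00168), while YARS had a value of 0.32. EARS2 starts 377 bases from UBFD1, which rose (0.72, FDR = 0.00517), beside -0.08 for EARS2. RARS2 fell beside ORC3, a subunit of the origin recognition complex 148 bases away, which had a value of 0.06. SARS2 (-0.35) starts 181 bases from MRPS12 (-0.53), FARS2 (-0.31) 563 bases from LYRM4 (-0.10), and WARS2 (0.24) 77 bases from RP11-418J17.1 (0.21). AIMP1 (-0.21) and AIMP2 (-0.17) start 341 and 223 bases from TBCK (0.20) and PMS2 (0.22). MRPS12, LYRM4, RP11-418J17.1, TBCK and PMS2 were not called.

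In control cells the cytosolic and mitochondrial genes were expressed at different levels. Levels were compared per length, as RPKM, the scaled reads per kilobase of the canonical transcript at a common library size. The 20 cytosolic synthetases ranged from 18.8 for FARSB to 275 for KARS in shNT cells, with a median of 96.2. FARSB has the longest canonical transcript of the members, 6761 bases, so its place depends on that length. The 16 mitochondrial synthetases ranged from 3.75 for PARS2 to 57.0 for IARS2, with a median of 10.3. Of these, 5 were above FARSB, but only IARS2 and RARS2 were above CARS, the next lowest cytosolic gene at 29.5. The medians of the cytosolic and mitochondrial sets differed by 9.32 times. AIMP1 and AIMP2 lay between them at 29.1 and 42.6. After KARS, the highest control levels belonged to GARS (186), MARS (149), TARS (146) and YARS (136). In shYEATS2 cells KARS was at 167 and GARS at 258, so that GARS replaced KARS at the top of the order. GARS was above KARS in both knockdown libraries (246 and 269 against 181 and 153) and below it in both control libraries (171 and 202 against 281 and 269).

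**Figure D4:**
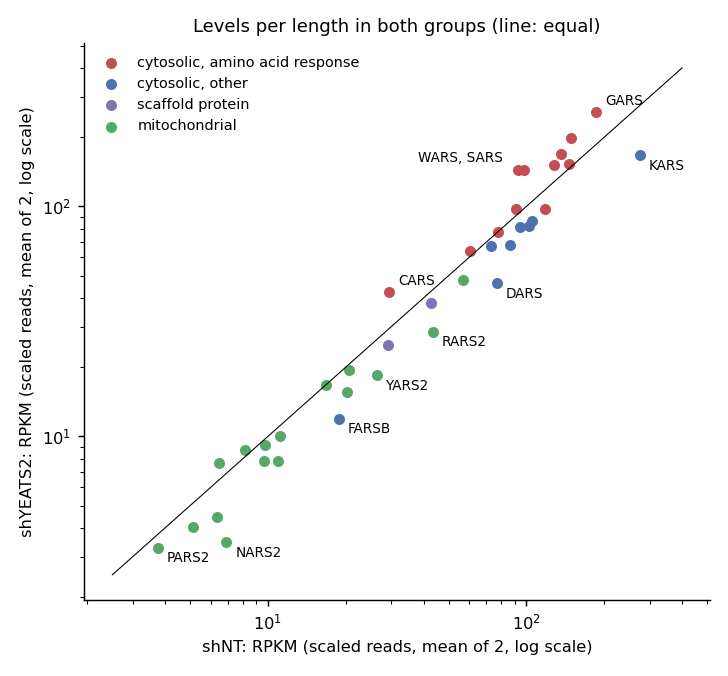
Level per length of each member in shNT (horizontal axis) and shYEATS2 cells (vertical axis), in RPKM on log scales, as means of 2 libraries, with a line of equality. Mitochondrial genes gather at the lower left, KARS lies below the line at 275 and 167, and GARS lies above it at 186 and 258.

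Because ATF4 is known to drive the 12 synthetases of the first list, 11 other factors and targets of the amino acid response were read from the same fit. Of these, 4 rose and 0 fell, with a median log2 fold change of 0.82, while 12.9% of all genes were called higher. TRIB3, a pseudokinase induced by ATF4, had scaled counts of 966 and 1418 in shNT and 4862 and 9202 in shYEATS2 cells (log2 fold change 2.56, FDR = 0.00181). DDIT3, the stress transcription factor CHOP, had 594 and 1130 against 2785 and 4844 (2.15, FDR = 0.00402). SESN2, a sensor of leucine, and SLC7A11, the cystine transporter, rose by 1.79 and 1.44 on the log2 scale (FDR = 0.00363 and 0.00396). In each of these genes both knockdown libraries were above both controls.

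CHAC1, which degrades glutathione, and ASNS, the asparagine synthetase, had values of 1.69 (FDR = 0.0111) and 0.82 (FDR = 0.0187) and were not called. Both carried the same motif in their promoter windows, at chr15:40953251-40953280 and chr7:97872458-97872487.
CHAC1 (plus strand): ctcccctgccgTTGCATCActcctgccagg
ASNS (minus strand): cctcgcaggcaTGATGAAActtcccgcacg
ATF4 messenger RNA itself had 10472 and 14743 scaled counts in shNT and 12367 and 14692 in shYEATS2 cells (0.10, FDR = 0.648). ATF4 is regulated mainly at translation, and its protein was not measured. Whether ATF4 moved the targets or the synthetases in these cells was not tested. The serine synthesis genes PSAT1 and PHGDH had values of 0.07 and -0.0049, and SHMT2 and the amino acid sensor kinase EIF2AK4 (GCN2) had 0.49 and 0.22. The first shNT library was the lowest of the 4 in 10 of these 11 genes, as it was in 10 of the 12 amino acid response synthetases. The synthetases thus spanned a narrower range, up to 0.65, than these targets, up to 2.56. MYC, another activator of genes for protein synthesis, had a log2 fold change of -0.10 (FDR = 0.467).

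**Figure D5:**
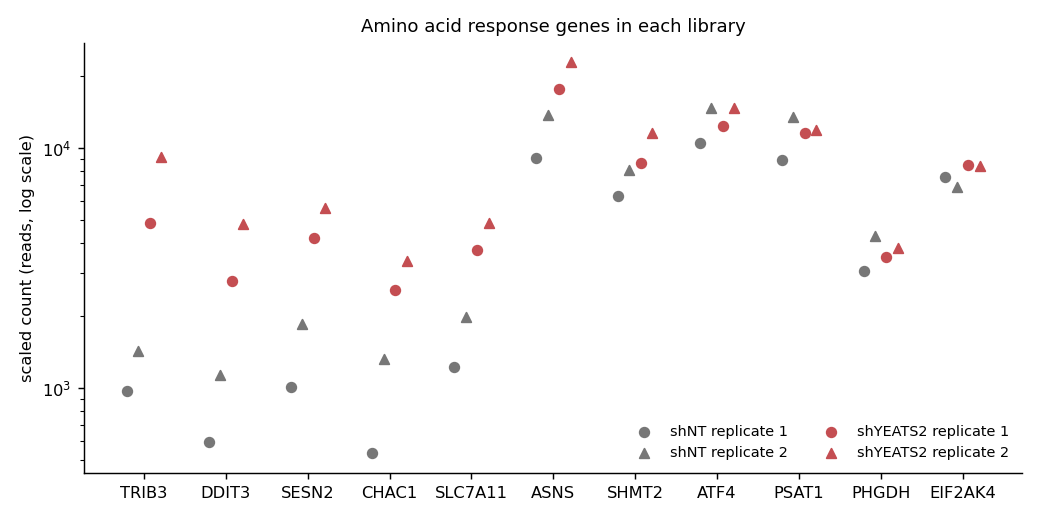
Scaled counts (vertical axis, reads, log scale) of 11 amino acid response genes in the 2 shNT libraries (grey) and the 2 shYEATS2 libraries (red), circles for the first and triangles for the second library of each group. TRIB3 runs from 966 and 1418 in shNT to 4862 and 9202 in shYEATS2, while ATF4, PSAT1 and PHGDH overlap between groups and the first shNT library is the lowest in 10 of the 11 genes.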

How the data were processed

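Messenger RNA of H1299 cells was sequenced from 2 libraries of shNT and 2 of shYEATS2 cells. ChIP-seq samples were not analysed here. The authors deposited raw read counts per gene. Their methods name the RNA-Seq unified mapper, the hg19 genome and HTSeq at default settings, whereas the submitters' processing notes list TopHat2 2.0.10 and HTSeq 0.6.1p1. The gene annotation was not given in the sources used here. Each of the 12676 genes has at least 101 reads in some library, so genes below that were not tested. Columns with the authors' own fold change, p-value and FDR were not used.

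Counts were tested with edgeR 4.0.16 (limma 3.58.1, R 4.3.3), using the quasi-likelihood test with TMM normalization, genes with 10 reads in 2 libraries (all passed), and Benjamini-Hochberg adjustment over all genes at FDR under 0.01. The biological coefficient of variation was 0.107. The test was tried on simulated counts with known changes first. DESeq2 1.42.0 and edgeR's exact test, other scalings and filters, a replicate block and each library left out were alternatives. The labels do not say that libraries came from separate cultures, although the study calls them independent replicates, so p-values measure the spread between these libraries.

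Gene positions, neighbours and canonical transcript lengths came from GENCODE v44 lifted to GRCh37, the build of the files, and promoter windows from RefSeq GRCh38.p14, matched by symbol. Of the members, 12 have 16 named pseudogenes in that annotation, and 0 of these are in the count table. Reads of near-identical copies may still be misassigned, which was not checked. The members and lists were chosen with earlier results of these data known. All 38 members, YEATS2 and the genes of the lists could be named. Neighbouring genes were added later by position.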

Additional observations from a re-analysis of the deposited data

How the results depend on the processing

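The 6 lower and 2 higher members came from 2 libraries per group, and at this depth a log2 fold change near 0.50 was at the limit of what the test called. Leaving out 1 library, with the remaining one assumed to vary like the others, gave 2 to 6 lower and 0 to 2 higher members (3211 called genes became 1625 to 4023). NARS2 with FARSB was called without the first shNT library and NARS2 with KARS without the second. Without the first shYEATS2 library YARS2 was lost (FDR = 0.0151), and without the second WARS and SARS were lost and the 6 lower ones remained. The exact test called 8 lower and 5 higher members and 5093 genes, and DESeq2 called 5 higher, adding CARS, GARS and MARS in both. At FDR under 0.05 there were 11 lower and 5 higher. Scaling by total counts moved the median of all genes to 0.118 and the higher share of calls from 50.8% (1581 lower, 1630 higher) to 67.0% (1166 and 2363). It called 5 higher members, and the list medians became 0.15 (cytosolic), -0.16 (mitochondrial) and -0.21 (other cytosolic), each with that shift included. With a library left out these medians ranged from -0.043 to 0.075, from -0.35 to -0.26 and from -0.38 to -0.34. Members near 0 changed sign. Under total counts these were HARS (0.013), LARS (0.12), EARS2 (0.037), HARS2 (0.11) and TARS2 (0.049). LARS and HARS2 did so under upper quartile scaling (0.0141 and 0.0111) and a mean count of at least 100 (0.0085 and 0.0052). With a library left out, AARS ranged from -0.10 to 0.32, TARS from -0.039 to 0.19, LARS from -0.018 to 0.0067, LARS2 from -0.018 to 0.21, HARS from -0.23 to 0.0059 and HARS2 from -0.096 to 0.075. The groups share replicate numbers, but no label says that a number marks a shared culture or day. Deviations of the first replicates correlated at 0.40. A replicate block called 10 lower and 5 higher members and 5457 genes, and the cause of these differences was not tested.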

Other observations

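Factors that act before and after the synthetases were read from the same fit. Of 4 genes for transfer RNA ends, modification and editing (TRNT1, DTD1, AARSD1 and YRDC), none passed FDR under 0.01 in edgeR's quasi-likelihood test. Only YRDC had an unadjusted p under 0.05 in that test. Of all 12676 genes, 12.5% were called lower and 12.9% higher. An unadjusted p under 0.05 was reached by 3527 lower and 3636 higher genes, so 1 gene of 4 was below that share. YRDC makes the threonylcarbamoyl modification of transfer RNA. It had 1870 and 1510 scaled counts in shNT and 1172 and 1047 in shYEATS2 cells (log2 fold change -0.61, FDR = 0.0107). In the pathway that makes selenocysteyl-tRNA from seryl-tRNA, SEPSECS, PSTK and SEPHS2 had values of 0.14, 0.55 and 0.08, and none passed the test. PSTK, the kinase that phosphorylates seryl-tRNA for selenocysteine, had 223 and 207 scaled counts in shNT and 340 and 291 in shYEATS2 cells (FDR = 0.0277).

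Genes named as elongation factors, among them EEF1A1 and TUFM, which carry charged transfer RNA to the ribosome, were not called either. By the same rule 12.5% of all genes were called lower and 12.9% higher. In the cytosol EEF1A1 had a log2 fold change of -0.05, and EEF2, the translocase, had -0.39 (FDR = 0.0336), with 141060 and 153740 scaled counts in shNT against 101610 and 123100 in shYEATS2 cells. In the mitochondrion TUFM had -0.35 (FDR = 0.0199), GFM1 had -0.48 (FDR = 0.0138) and GFM2 had 0.25 (FDR = 0.059). TUFM and GFM1 thus lay near the median of -0.28 of the mitochondrial synthetases or below it, whereas GFM2 lay above 0 with all its shYEATS2 libraries above its shNT libraries.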
